A study of Mus musculus with 12 samples.

Results

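Whether the liver's response to diethylnitrosamine (DEN) depended on genotype was examined in 12 mouse liver libraries, 3 in each of 4 groups. All mice were male and of the C57BL6 background. They were either wild type (WT) or carried the CUGBP1 S302A knock-in, which puts alanine in place of a serine in CUGBP1, an RNA-binding protein encoded by Celf1. WT_DEN and S302A_DEN mice received DEN at 50 µg per g body weight at 3 weeks of age. WT_Ctrl and S302A_Ctrl mice received no treatment. By 1 field of the labels all livers were taken at 33 to 41 weeks of age. Another field gives 30 to 38 weeks, which was read as weeks after treatment. The labels describe each library as 1 mouse but give no animal numbers, so p-values speak of the spread among these 12 samples, which could be technical. For each gene the DEN change was the mean log2(TPM + 1) of the treated group minus that of the untreated group of the same genotype. The quantity studied was the DEN change in S302A minus the DEN change in wild type, called here the difference of the DEN changes: it is negative where S302A ends lower than the wild type response would place it. Of 31253 gene symbols, the 12120 with more than 1 TPM in at least 3 of the 12 libraries were tested.

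DEN is activated by cytochrome P450 enzymes of the hepatocyte to a DNA-alkylating agent, and young male mice that receive it develop liver tumours. CUGBP1 binds GU-rich elements in messenger RNA and influences splicing, decay and translation. Much of the text below concerns fatty acid oxidation. In hepatocytes the nuclear receptor PPARA, activated by fatty acids, switches on the genes for fatty acid ω-hydroxylation in the endoplasmic reticulum, for β-oxidation of very long chains in peroxisomes and for β-oxidation in mitochondria.

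The third S302A_DEN library stood apart. Its Spearman correlation with the other 11 libraries was 0.877 to 0.913, against 0.937 to 0.980 among the other pairs, and 87.0% of tested genes had their highest S302A_DEN value in it. Summed macrophage markers reached 835 TPM there against 117 to 299 TPM elsewhere, and summed stellate cell markers 283 against 48.2 to 117 TPM. Differences are therefore given on 12 libraries and on the 11 without it. The sequencing depth is unknown because TPM does not keep it. Hepatocyte markers were abundant in every library, with sums of 65462 to 128516 TPM. Celf1 itself was not called: the difference of its DEN changes was 0.25 on 12 libraries (95% interval -0.39 to 0.90, adjusted p = 0.975, limma) and 0.17 on 11. A substitution of 1 amino acid cannot be seen in a gene's TPM, so these values are no check of the labels.

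On all 12 libraries, limma called 5 of 12120 genes (0.0413%) at a Benjamini-Hochberg adjusted p below 0.05, 3 positive (0.0248%) and 2 negative (0.0165%), and in all 5 the DEN change had opposite signs in the 2 genotypes. AB343393 and AB343394, database transcripts with the same value in every library, are 1 measurement under 2 symbols. Their TPM was 12.8, 4.85 and 7.69 in WT_Ctrl, 1, 1 and 1 in WT_DEN, 1, 1 and 1 in S302A_Ctrl and 9.95, 8.13 and 13.9 in S302A_DEN, where 1 is the lowest value the files hold and means 1 or less. They were above that floor only in untreated wild type and treated S302A livers, and the difference of the DEN changes was 4.67 (SE 0.41, adjusted p = 0.000347).

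AK220016, also a database transcript, had the opposite layout. It stood at 1.90, 1 and 93.3 TPM in WT_Ctrl and at 244, 557 and 336 TPM in WT_DEN. S302A_Ctrl held 308, 225 and 203 TPM and S302A_DEN 5.93, 1 and 1 TPM, which gave a difference of -11.78 (SE 1.55, adjusted p = 0.0155). The 1 WT_Ctrl library at 93.3 TPM was the only one of the 6 libraries in the low groups to exceed 6 TPM. Part of these differences lies in the untreated livers: S302A minus wild type was -2.15 without and 2.52 with DEN for AB343393, and 4.89 without and -6.89 with DEN for AK220016.

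Gvin1, an interferon-inducible very large GTPase, was at 2.00, 2.17 and 1.77 TPM in WT_Ctrl, 1.91, 1.10 and 1.08 in WT_DEN and 1.16, 1 and 1.27 in S302A_Ctrl. It was at 6.44, 5.93 and 6.83 TPM in S302A_DEN, above all 9 other libraries, with a difference of 2.14 (SE 0.25, adjusted p = 0.00653). Cyp2b10, the drug-metabolizing P450 that responds to the receptor CAR, moved the other way. It was at 4.70, 7.29 and 7.22 TPM in WT_Ctrl and 10.8, 15.1 and 12.1 TPM in WT_DEN. In S302A_Ctrl it was at 5.88, 9.30 and 8.02 TPM and in S302A_DEN at 1, 2.33 and 1 TPM, so that treated wild type livers lay above and treated S302A livers below every untreated liver. The difference was -2.75 (SE 0.39, adjusted p = 0.0259), and since 2 of the treated S302A values are at the floor it is a lower bound in size on this scale. AB343393 and AB343394 kept their call when any 1 library was left out. Gvin1 lost it without S302A_Ctrl replicate 2 or WT_DEN replicate 3, with a difference of 2.09 and 2.06, and when 5 TPM was required in 3 libraries (adjusted p = 0.0600). AK220016 lost it without WT_Ctrl replicate 1, S302A_Ctrl replicate 2, WT_DEN replicate 3 or S302A_DEN replicate 2, with adjusted p up to 0.0834 and differences of -11.83 to -11.03 in these 4 fits, and also without the filter on low values (adjusted p = 0.0650) and with robust moderation (adjusted p = 0.134). Cyp2b10 kept it without WT_Ctrl replicate 3, S302A_Ctrl replicate 1, S302A_DEN replicate 2 or S302A_DEN replicate 3, and lost it in the 8 other fits that left out 1 library, with adjusted p up to 0.117 and differences of -2.85 to -2.58. Its call was also lost after median-of-ratios scaling (adjusted p = 0.0745), after quantile normalization (0.0781) and without the filter on low values (0.0520). On 11 libraries the differences were 4.47 for AB343393 and AB343394, 2.10 for Gvin1, -11.48 for AK220016 and -2.63 for Cyp2b10, and all 5 were called.

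Without S302A_DEN replicate 3, 79 of 12120 genes (0.652%) were called, 23 (0.19%) with a positive and 56 (0.462%) with a negative difference. The 5 genes called on 12 libraries were among them. Of the 56 negative genes, 51 had DEN changes of opposite sign, higher in wild type and lower in S302A, as 31.3% of all genes did. In 39 of them the unadjusted p was below 0.05 in each genotype. The median DEN change of the 56 was 0.59 in wild type and -0.94 in S302A. In 54 of them the treated groups differed between genotypes at an unadjusted p below 0.05 (23.5% of all genes), against 10 in which the untreated groups did (4.19%). Of the 23 positive genes, 18 had DEN changes of opposite sign, lower in wild type and higher in S302A, as 1152 of all 12120 genes did. All 23 were higher after DEN in S302A at an unadjusted p below 0.05 (8.39% of all genes). At that p 9 also changed the opposite way in wild type, and none changed in wild type alone.

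Of the called genes, 50 are described in the text, and most of their calls on 11 libraries depended on single livers. When each of the 11 libraries was left out in turn, 12 of the 50 kept their call every time: AB343393, AB343394, Acaa1b, Akr1c12, Akr1c19, Aldh3a2, Col5a2, Cyp4a10, Eci1, Gvin1, Marcksl1-ps4 and Retsat. A further 6, Abcc3, BC021767, C6, Cyp2b10, Cyp4a14 and Gm14204, kept it in 9 or 10 of the 11 fits. Then 8 kept it in 4 to 7 fits, AK220016, Acot4, Btg3, Fabp5, Fkbp11, Mgll, Pex11a and Slc25a20, and the other 24 in 1 to 3. Of the 50, 34 lost the call without S302A_DEN replicate 2 and 20 without S302A_DEN replicate 1. The number lost was 33 without WT_DEN replicate 2, 29 without replicate 3 and 22 without replicate 1 of that group, and 32, 30 and 23 without S302A_Ctrl replicates 1, 2 and 3. It was 2, 18 and 23 without WT_Ctrl replicates 1, 2 and 3. Median-of-ratios scaling ended the call of 10 of the 50, Acad11, Acot1, Acot3, Akr1c13, Dgat2, Hsd17b4, Pex11a, Slc22a5, Slc25a20 and Spp1, and quantile normalization that of the same 10 and Ces1g. Testing without the filter on low values ended it for 14, Abcd2, Abcd3, Acot1, Acot3, Ces1d, Ces1e, Ces1g, Cxcl14, Cyp2c38, Dgat2, Inmt, Moxd1, Rpph1 and Spp1.

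Counted by the DEN changes themselves, 156 genes (1.29%) had an unadjusted p below 0.05 in each genotype with opposite signs, 141 (1.16%) of them higher after DEN in wild type and lower in S302A and 15 (0.124%) the other way round. With the same sign there were 490 (4.04%). On 12 libraries the reversed genes numbered 31 (0.256%), 23 (0.19%) of them higher in wild type and lower in S302A and 8 (0.066%) the other way round, and the genes with the same sign 274 (2.26%). At an unadjusted p below 0.05 the difference itself passed in 613 genes (5.06%) on 12 and 1720 (14.2%) on 11 libraries. The median difference over all tested genes was 0.14 on 12 and -0.12 on 11 libraries, and 0.03 and 0.01 after median-of-ratios scaling, so the balance of directions depends on the scaling. On 11 libraries the called genes were then 32 positive and 53 negative, and 48 positive and 45 negative after quantile normalization. The reversed genes higher in wild type and lower in S302A were 92 of 149 and 72 of 140 under those 2 scalings.

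**Figure D1:**
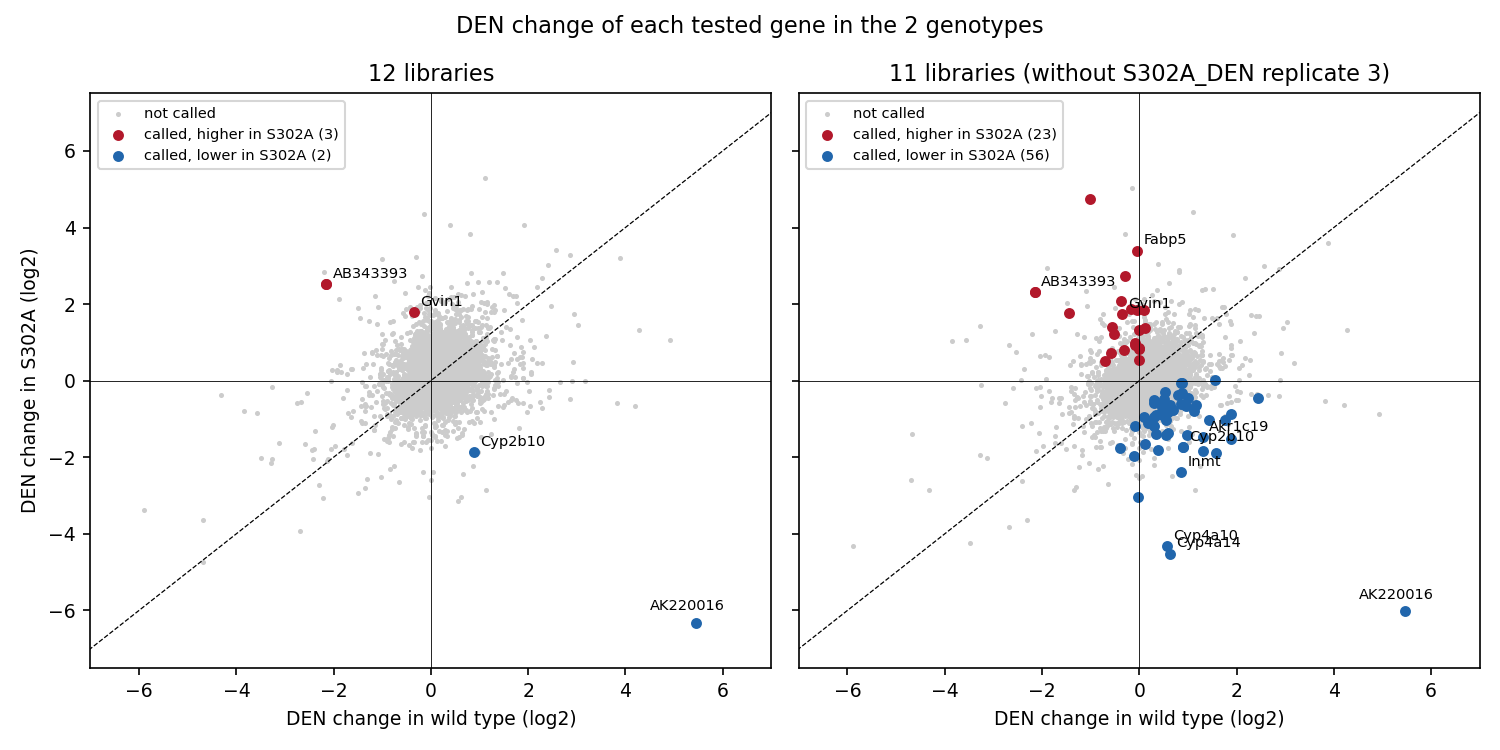
DEN change in wild type (horizontal) against DEN change in S302A (vertical), both in log2(TPM + 1), for the 12120 tested genes, on 12 libraries (left) and on 11 (right). Genes on the dashed line changed alike in both genotypes; of the 79 genes called on 11 libraries, the 56 blue points lie below it, mostly right of 0 and under 0, and the 23 red points above it.

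The 11 libraries showed fatty acid oxidation genes higher after DEN in wild type livers and lower after DEN in the 2 remaining S302A livers. The list of fatty acid oxidation genes and PPARA targets had 25 tested members. All 25 had a negative difference, against 65.7% of all tested genes. Of the 25, 9 were called (0.462% of all genes) and 20 had an unadjusted p below 0.05 with a negative sign (11.5% of all genes). The median was -0.90, made of a median DEN change of 0.47 in wild type and -0.46 in S302A. In the third S302A_DEN library many of these genes were near or above their untreated level. On 12 libraries 22 of 25 were negative (33.4% of all genes) with a median of -0.57. There 11 had an unadjusted p below 0.05 with a negative sign (2.83% of all genes) and 0 were called. After median-of-ratios scaling the medians were -0.74 on 11 libraries and -0.71 on 12. Under that scaling 24 members were negative on 11 libraries (48.4% of all genes). Of the members 6 were called, as were 53 of all 12120 genes with a negative sign. On TPM as deposited, leaving out 1 more of the 11 libraries gave medians of -1.09 to -0.76. Of the 8 called members that are described below, all 8 kept their call without WT_Ctrl replicate 1 and 7 without WT_DEN replicate 1. It was 6 without WT_Ctrl replicate 2, 5 without WT_Ctrl replicate 3 or S302A_Ctrl replicate 3, 4 without S302A_DEN replicate 1, and 3 without S302A_Ctrl replicate 1 or 2 or WT_DEN replicate 2 or 3. Only 2 kept it without S302A_DEN replicate 2, which leaves 1 treated S302A library. Summed hepatocyte markers were 65462 to 93834 TPM in WT_Ctrl and 110824 to 128516 TPM in WT_DEN. They were 70497 to 84333 TPM in S302A_Ctrl and 93669 to 94938 TPM in the first and second S302A_DEN libraries, so on these 11 libraries they were higher after DEN in both genotypes, whereas the fatty acid oxidation genes were lower after DEN in S302A. In bulk liver, fewer cells of a type and less RNA per cell cannot be told apart.

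PPARA binds as a heterodimer with RXR to a direct repeat of AGGTCA spaced by 1 base. The RefSeq promoter windows of GRCm38, 250 bases before to 50 after each gene's start, were searched on both strands for AGGTCANAGGTCA with up to 2 mismatches. Windows were available for 38 of the 56 negative genes, and 5 of them (13.2%) held a match, Acot4, Akr1c19, Paqr7, Rab43 and Slc25a20. The share was 2 of 17 (11.8%) on the list, 1 of 15 (6.67%) among positive genes, 3.99% of 8557 tested genes and 4.40% of all 27025 genes with a window. The 2 list members with a match are shown from base -100 to base 19 of the start on the + strand, with the matching bases in capitals. In Slc25a20 (chr9:108662036-108662154) they lie at bases 7 to 19 on the + strand, and in Acot4 (chr12:84038279-84038397) at bases -13 to -1 on the - strand. A match is a description of the letters and not evidence of binding.
Slc25a20: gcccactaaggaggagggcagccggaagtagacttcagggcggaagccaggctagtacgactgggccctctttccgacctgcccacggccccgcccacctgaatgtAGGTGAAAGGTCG
Acot4: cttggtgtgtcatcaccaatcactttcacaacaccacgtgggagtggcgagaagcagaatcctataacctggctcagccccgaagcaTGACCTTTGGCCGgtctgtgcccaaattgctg

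The ω-hydroxylases had the largest differences among the list. Cyp4a10 was at 107, 72.9 and 92.5 TPM in WT_Ctrl and 91.9, 186 and 137 TPM in WT_DEN. In S302A_Ctrl it was at 73.8, 124 and 46.3 TPM and in S302A_DEN at 1.88, 4.09 and 41.6 TPM. The treated S302A libraries were all below the 9 others, and the third was nearer the untreated level than the other 2 were. The difference was -4.87 (SE 0.55, adjusted p = 0.00451) on 11 libraries and -3.71 (SE 1.06, adjusted p = 0.489) on 12. Cyp4a14 had 50.1, 78.9 and 22.6 TPM in S302A_Ctrl, and its S302A_DEN values were 1, 1 and 41.8 TPM, that is, at the floor in 2 livers and within the untreated range in the third. Its wild type values were 49.2, 24.2 and 41.7 TPM without and 72.7, 72.7 and 35.4 TPM with DEN, and the difference on 11 libraries was -5.14 (SE 0.65, adjusted p = 0.00942). It was -3.67 on 12 libraries and not called. Both genes lie on chromosome 4 of GRCm38, Cyp4a14 at 115486200-115496142 and Cyp4a10 at 115518264-115533649, and such close paralogs can exchange reads, so their single values are uncertain.

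In the peroxisome, Ehhadh, the bifunctional enzyme of the middle steps of β-oxidation, was at 62 to 109 TPM in the first 3 groups and at 36.3, 31.3 and 104 TPM in S302A_DEN, with a difference of -1.71 (SE 0.28, adjusted p = 0.0289). Acaa1b, a peroxisomal thiolase, was at 660.2, 431 and 573 TPM in WT_Ctrl, 1008, 1070.5 and 976 in WT_DEN, 521, 777 and 644 in S302A_Ctrl and 241, 151 and 701 in S302A_DEN. Its difference of -2.63 (SE 0.32, adjusted p = 0.00803) was called in all 21 alternatives on 11 libraries, whereas Ehhadh kept its call in 3 of 11 fits that left out 1 more library. On 12 libraries the differences were -1.18 for Ehhadh and -2.01 for Acaa1b, and neither was called.

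Some other called peroxisome genes, of its membrane and division among them, followed the same layout. All of those given here were called on 11 libraries, and peroxisome genes were not counted as a set. Abcd3, a transporter of long-chain acyl-CoA, was at 214, 219 and 221 TPM in WT_DEN and 87.8, 71.5 and 157 TPM in S302A_DEN, with 112 to 190.0 TPM in the 6 untreated livers. Pex11a, which promotes peroxisome division, was at 20.8, 27.1 and 24 TPM in WT_Ctrl and 41.1, 48.9 and 52.2 in WT_DEN, against 26.9, 36.5 and 25.6 in S302A_Ctrl and 19.9, 16.6 and 50.6 in S302A_DEN. The third S302A_DEN library was at the treated wild type level for Pex11a and within the untreated range for Abcd3. The differences on 11 libraries were -1.57 (SE 0.27, adjusted p = 0.0378) for Abcd3 and -1.62 (SE 0.25, adjusted p = 0.0252) for Pex11a. Abcd2, a related transporter at 1 to 4.11 TPM in the first 3 groups, had -1.80 (SE 0.32, adjusted p = 0.0393), and Hsd17b4, the D-bifunctional enzyme, -0.83 (SE 0.14, adjusted p = 0.0354). On 12 libraries the differences were -1.24 for Abcd3, -1.14 for Pex11a, -1.52 for Abcd2 and -0.53 for Hsd17b4, none of them called.

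Acyl-CoA thioesterases, which release free fatty acids from CoA, had the largest DEN changes in wild type among the called list members. Acot3 was at 2.36, 1 and 1.15 TPM in WT_Ctrl and 5.42, 18.1 and 17.6 TPM in WT_DEN. S302A livers held 1.77, 1.88 and 1.61 TPM without and 1, 1 and 2.17 TPM with DEN, so the S302A groups stayed near the floor, and the difference was -2.89 (SE 0.55, adjusted p = 0.048). Acot4, whose window is printed above, was at 5.94, 3.15 and 5.22 TPM in WT_Ctrl, 11.7, 15.5 and 15.7 in WT_DEN, 5.93, 5.60 and 3.75 in S302A_Ctrl and 1.64, 2.34 and 11 in S302A_DEN. The first and second treated S302A livers lay below every other library, and the third near the lower end of WT_DEN. The differences on 11 libraries were -2.44 (SE 0.34, adjusted p = 0.0163) for Acot4 and -3.13 (SE 0.55, adjusted p = 0.0393) for Acot1, in which WT_DEN replicate 1 at 10.9 TPM stayed within the untreated range of 7.14 to 11.8 TPM. The 3 genes lie close together on chromosome 12, within 84009490-84060402 (GRCm38). On 12 libraries none was called, with -2.67 for Acot3, -1.77 for Acot4 and -2.30 for Acot1.

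Slc25a20 and Acaa2, mitochondrial members of the list, had smaller differences than the thioesterases. So had Eci1, Hadh and Acad11, which are not on the list. Slc25a20, the carnitine-acylcarnitine carrier, was at 51.2, 57.7 and 58.1 TPM in WT_Ctrl and 73, 76.1 and 83.9 in WT_DEN, and at 56.7, 62.5 and 56.2 in S302A_Ctrl and 40.7, 31.5 and 77 in S302A_DEN. The groups did not overlap in either genotype on 11 libraries, where the difference was -1.16 (SE 0.18, adjusted p = 0.0272), but the third treated S302A liver lay at the WT_DEN level and the difference on 12 was -0.80. Eci1, an enoyl-CoA isomerase, had -1.08 (SE 0.14, adjusted p = 0.0131) and kept its call in all 21 alternatives. Hadh, the short-chain hydroxyacyl-CoA dehydrogenase, had -1.15 (SE 0.20, adjusted p = 0.0363) and Acad11, an acyl-CoA dehydrogenase, -0.89 (SE 0.15, adjusted p = 0.0361). Acaa2, the mitochondrial thiolase, had a difference of -0.91 and an adjusted p of 0.0532, just outside the threshold. Unlike Eci1, Hadh and Acad11 each kept the call in 1 of the 11 fits that left out 1 more library. On 12 libraries none was called, with -0.86 for Eci1, -0.79 for Hadh, -0.60 for Acad11 and -0.70 for Acaa2.

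Aldh3a2, the fatty aldehyde dehydrogenase, showed how far the third library could differ. It was at 101, 99.2 and 105 TPM in WT_Ctrl, 140.2, 125 and 134 in WT_DEN, 93.7, 126 and 86.2 in S302A_Ctrl and 32.1, 24.1 and 227 in S302A_DEN. The first and second treated S302A livers were below and the third above all 9 other libraries. The difference was -2.20 (SE 0.23, adjusted p = 0.00244) on 11 libraries and -1.20 (SE 0.84, adjusted p = 0.975) on 12. Retsat, a retinol saturase, was low in all 3: 63.3, 76.2 and 128 TPM in S302A_DEN against 240.4 to 301 in WT_DEN and 157 to 202 in untreated livers, with -1.96 (SE 0.20, adjusted p = 0.00244) on 11 and -1.67 (SE 0.34, adjusted p = 0.182) on 12 libraries. Mgll, which hydrolyses monoacylglycerol, was at 68.8, 75.1 and 80.8 TPM in WT_DEN against 33.2 to 47.4 in untreated livers and 32.3, 24.2 and 25.7 in S302A_DEN, and its difference was -1.47 (SE 0.23, adjusted p = 0.0272) on 11 libraries. Slc22a5, the carnitine importer, had -1.28 (SE 0.22, adjusted p = 0.0387). On 12 libraries Mgll had -1.51 and Slc22a5 -0.74, and neither was called.

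Ppara, the receptor's own gene, was at 30.6, 24.2 and 33 TPM in WT_Ctrl, 29.9, 42 and 51.4 in WT_DEN, 39.5, 30.9 and 32.7 in S302A_Ctrl and 23.3, 21.6 and 24.2 in S302A_DEN. The treated S302A livers, the third included, were close together, with 2 of them below and the third level with the lowest of the 9 other livers, WT_Ctrl replicate 2. The difference was -1.0 on 12 libraries (unadjusted p = 0.00682, adjusted p = 0.52, limma) and -1.04 on 11 (adjusted p = 0.149), so it was not called. The 15 genes Abcd3, Acaa2, Acad11, Akr1c12, Akr1c13, Aldh3a2, Eci1, Ehhadh, Fmo1, Hadh, Hsd17b4, Pex11a, Ppara, Slc22a5 and Slc25a20 are named here and below outside the naming rule and were chosen after their values were seen, as were Col5a2 and Egfr.

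**Figure D2:**
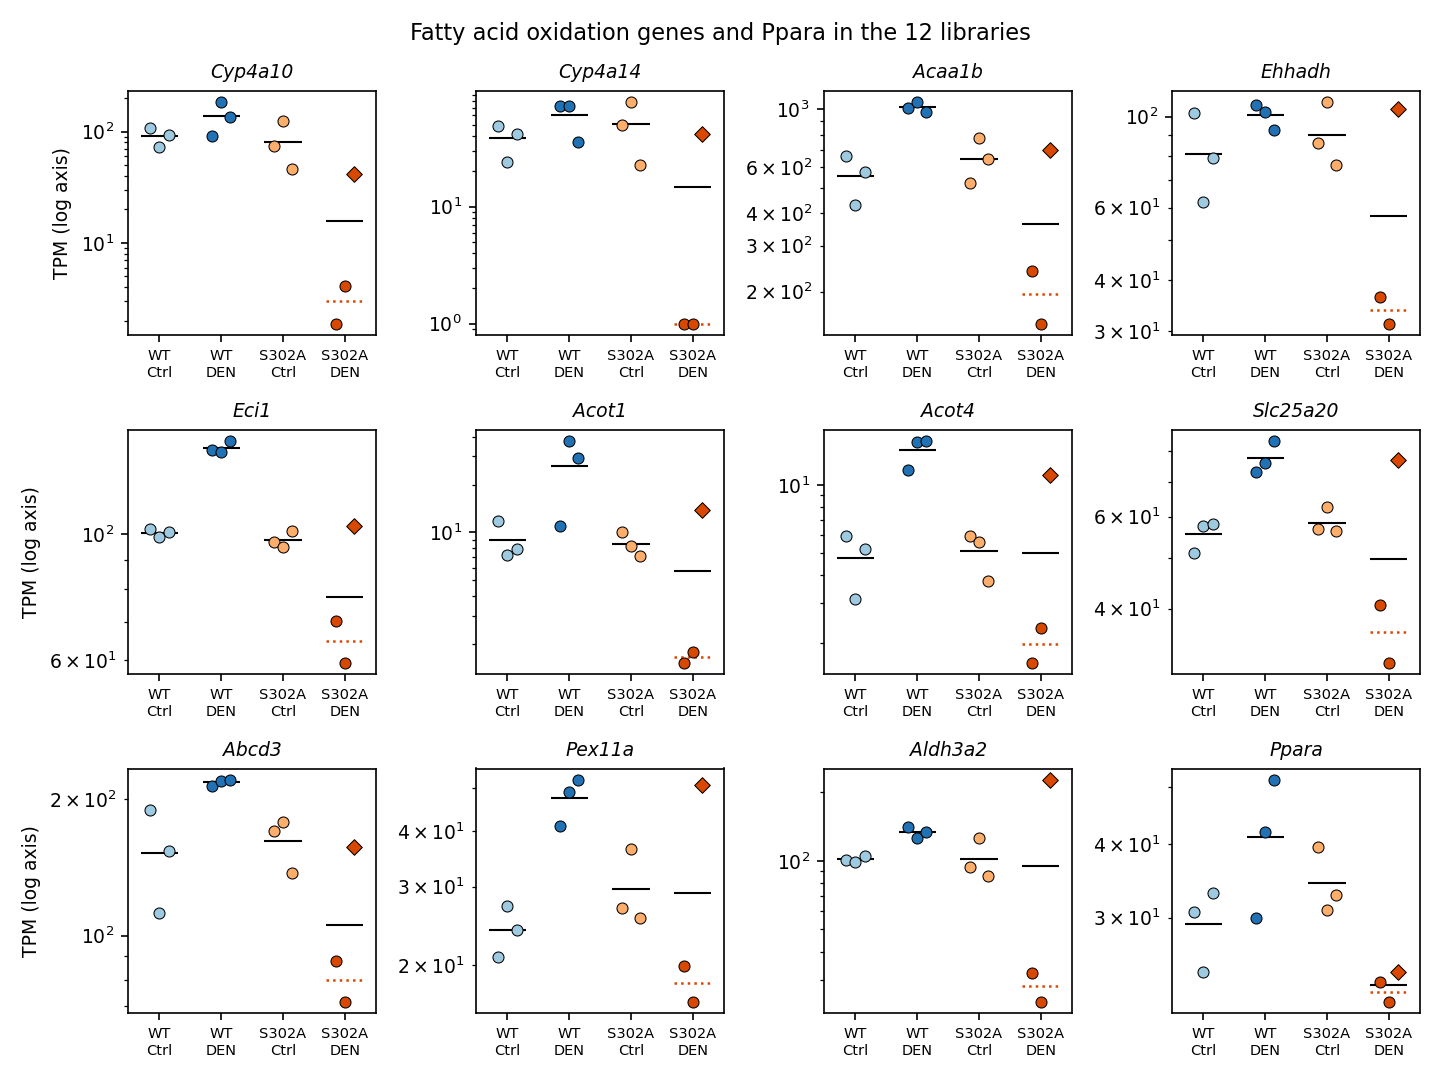
TPM (log axis) of 11 called fatty acid oxidation genes and of Ppara in each library by group; circles are libraries, the diamond is S302A_DEN replicate 3, black bars are means of 3 and the dotted orange bar is the mean of the first and second S302A_DEN libraries. The 2 orange circles of S302A_DEN lie below the 9 libraries of the other groups in all 12 panels, and the diamond ranges from the low level (Ppara) to above all others (Aldh3a2). Several panels were chosen after their values were seen, and the share of all genes with this layout was not counted. Acot3, also called, is not drawn, and its first and second S302A_DEN libraries were level with the lowest WT_Ctrl library.

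The library left out of the 11 was set beside the called genes. Its values had no part in the test on 11 libraries, though they counted in the filter on low values. Its own value minus the S302A_Ctrl mean, less the wild type DEN change, was negative for 38 of the 56 negative genes (67.9%), against 14.2% of all tested genes. It was positive for 22 of the 23 positive genes (95.7%), against 85.8% of all genes. That library was above both other S302A_DEN libraries in 46 of the 56 negative genes, as in 87.0% of all genes. Its median value over the 56 was -0.43, against 0.66 over all genes. These shares use the same wild type and S302A_Ctrl libraries as the calls, which leans them toward the sign of the call. They are a description and no independent support.

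**Figure D3:**
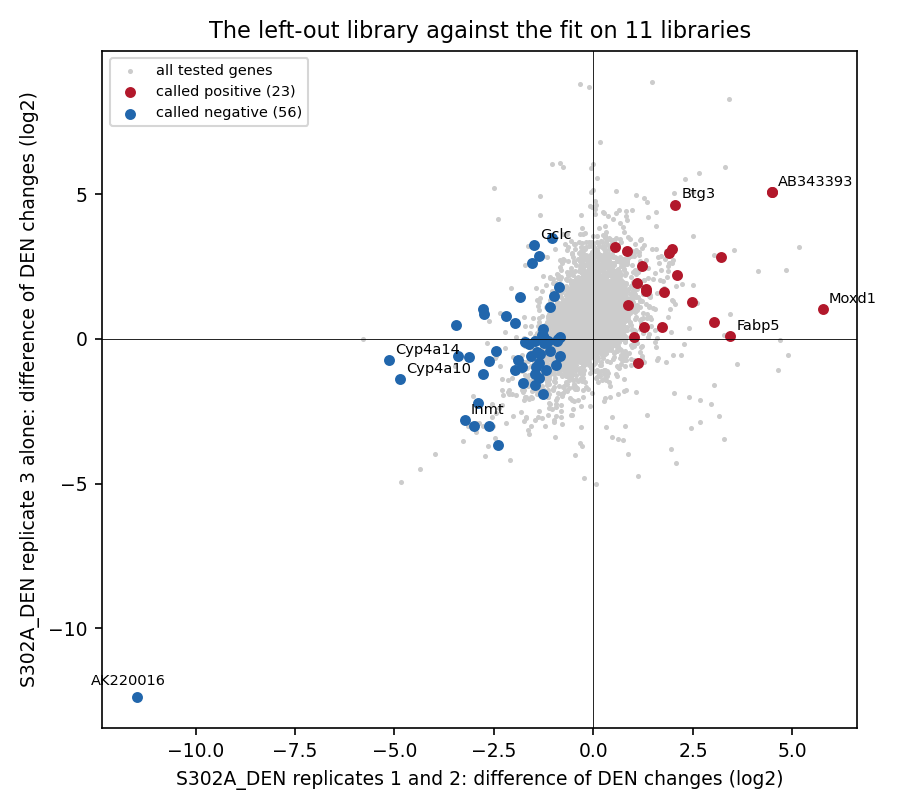
Difference of the DEN changes (log2) from the 11 libraries (horizontal) against the same difference from S302A_DEN replicate 3 alone (vertical), for all tested genes (grey), the 23 called positive (red) and the 56 called negative (blue). Of the blue points 38 lie below 0, among them Inmt, Cyp4a10 and Cyp4a14, while Gclc lies above 0; of the red points 22 lie above 0.

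Aldo-keto reductases, which reduce steroids and reactive carbonyls, formed a group of called neighbours on chromosome 13. Akr1c13 lies at 4191150-4205596, Akr1c19 at 4228700-4252843 and Akr1c12 at 4268176-4279433 (GRCm38), with the processed pseudogene Marcksl1-ps4 at 4248735-4249025 inside Akr1c19 on the same strand, so reads of the 2 may not be told apart. Akr1c19 was at 36.9, 31.4 and 33.5 TPM in WT_Ctrl, 82, 88.2 and 84.7 in WT_DEN, 53.8, 53.4 and 41.5 in S302A_Ctrl and 22.8, 12.8 and 253 in S302A_DEN. In wild type the treated livers were all above the untreated, whereas the first and second treated S302A livers were below and the third above every other library. Akr1c12 was at 100.1, 99.8 and 101 TPM in WT_DEN against 51.5 to 57.1 in WT_Ctrl, and at 46, 44.9 and 122 TPM in S302A_DEN against 66.9 to 73.5 in S302A_Ctrl. The differences on 11 libraries were -2.77 (SE 0.28, adjusted p = 0.00238) for Akr1c19 and -1.47 (SE 0.14, adjusted p = 0.00193) for Akr1c12. Marcksl1-ps4 had -3.41 (SE 0.32, adjusted p = 0.00193) and Akr1c13 -0.87 (SE 0.16, adjusted p = 0.0422). On 12 libraries none of the 4 was called. There the differences were -1.5 for Akr1c19, -1.0 for Akr1c12 and -2.47 for Marcksl1-ps4, and Akr1c13 had a difference of 0.01 that turned to -0.13 after median-of-ratios scaling, with 366 TPM in S302A_DEN replicate 3.

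Among other enzymes of drug and lipid handling, Inmt, which methylates indoleamines, was low in all 3 treated S302A livers. It was at 544, 198 and 500.0 TPM in WT_Ctrl, 619, 679 and 767 in WT_DEN, 514, 602 and 557 in S302A_Ctrl and 161, 70.0 and 144 in S302A_DEN, with WT_Ctrl replicate 2 the next lowest liver. Its difference was -3.24 (SE 0.56, adjusted p = 0.0365) on 11 and -3.09 (SE 0.53, adjusted p = 0.0803) on 12 libraries. The carboxylesterases Ces1d, Ces1e and Ces1g, close paralogs on chromosome 8, were called with differences of -2.78, -2.41 and -2.76 on 11 libraries. Ces1e was at 77.9, 56.1 and 26.8 TPM in S302A_DEN and 216 to 247 TPM in WT_DEN, lowest in the third library, but Ces1g reached 685 TPM there, above its range of 20.9 to 156 TPM in the first 3 groups. Dgat2, the acyltransferase of triglyceride synthesis, was at 234, 256 and 295 TPM in WT_DEN against 119 to 156 in WT_Ctrl. It stood at 152, 127 and 152 TPM in S302A_DEN against 165 to 197 in S302A_Ctrl, and the difference was -1.20 (SE 0.22, adjusted p = 0.0413). On 12 libraries the differences were -2.26 for Ces1d, -2.83 for Ces1e, -1.55 for Ces1g and -1.16 for Dgat2, none of them called.

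Several called genes were low in 2 treated S302A livers and highest of all in the third. Gclc, the rate-limiting enzyme of glutathione synthesis, was at 94.5 to 152 TPM in the first 3 groups and at 62.8, 45.8 and 1448 TPM in S302A_DEN. Abcc3, an organic anion exporter, was at 40.5 to 63.1 TPM and 16.4, 12.8 and 151 TPM in the same order. Fmo1, a flavin monooxygenase, was at 74.5 to 164 and 42.9, 35.1 and 226 TPM, and Cyp2c38 at 6.99 to 41.4 and 5.56, 4.36 and 90.4 TPM. Called on 11 libraries with differences of -1.5, -1.85, -1.97 and -3.47, these 4 had 0.07, -0.76, -1.13 and -2.15 on 12, and none was called there. For Gclc the sign itself turned with that 1 library. The list of NRF2 targets, to which Gclc belongs, had a median of 0.75 on 12 and -0.39 on 11 libraries, with 18 of 20 members positive on 12 and 16 of 20 negative on 11. All tested genes shifted the same way, with 66.6% positive on 12 and 65.7% negative on 11.

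**Figure D4:**
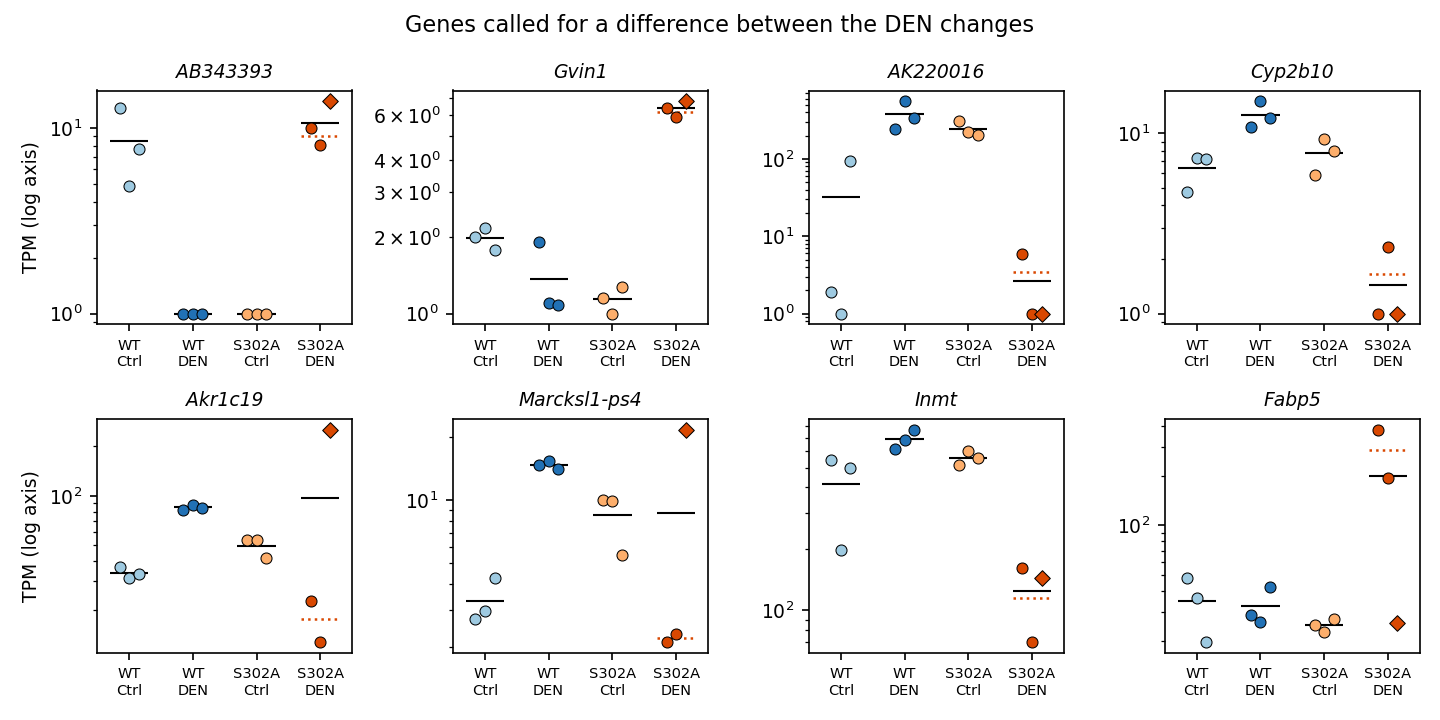
TPM (log axis) in each library for 8 genes called for a difference between the DEN changes, drawn as in the plot of fatty acid oxidation genes. AB343393 and AK220016 change places between the untreated groups as well as the treated ones, Inmt and Cyp2b10 are low in all 3 S302A_DEN libraries, and Akr1c19 and Fabp5 split them.

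Of the 23 positive genes, 14 had an unadjusted p below 0.05 for the DEN change in S302A alone. Fabp5, a fatty acid binding protein that normal hepatocytes hold at low levels, was at 19.7 to 48.1 TPM in the first 3 groups and at 379.9, 193 and 25.8 TPM in S302A_DEN. Moxd1, a monooxygenase expressed more in male liver, was at 54.6, 50.8 and 1.03 TPM there and at 1 TPM in 8 of the 9 libraries of the other groups, the exception being WT_Ctrl replicate 2 at 15.5 TPM. Cxcl14, a chemokine, was at 25.9, 7.66 and 1.81 TPM in S302A_DEN and 1 to 2.02 TPM in the others. For these 3 genes the third library lay within or near the range of the other groups. The differences on 11 libraries were 3.44 (SE 0.49, adjusted p = 0.0182) for Fabp5, 5.76 (SE 0.95, adjusted p = 0.032) for Moxd1 and 3.04 (SE 0.51, adjusted p = 0.0354) for Cxcl14. On 12 libraries none was called, with 2.32 for Fabp5, 4.19 for Moxd1 and 2.22 for Cxcl14.

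In Col5a2, Gm14204, Fkbp11 and Btg3, also positive, all 3 treated S302A livers were above the 9 other livers. Col5a2, a fibrillar collagen chain, was at 3.40, 4.92 and 5.73 TPM in S302A_DEN and at 1 to 1.16 TPM in the 9 other libraries, with 1.31 (SE 0.16, adjusted p = 0.00803) on 11 and 1.45 (SE 0.23, adjusted p = 0.0552) on 12. Gm14204, an uncharacterized transcript, was at 6.97, 6.88 and 6.15 TPM against 1 to 2.08 TPM, with 1.77 (SE 0.24, adjusted p = 0.0144) on 11 libraries. Fkbp11, a prolyl isomerase of the secretory pathway, was at 32.5, 44.4 and 85.5 TPM in S302A_DEN and 10.6 to 25 TPM elsewhere, with 1.97 (SE 0.31, adjusted p = 0.0272). Btg3, an antiproliferative factor, was at 9.59, 7.17 and 54.9 TPM against 1.04 to 3.03 TPM, with 2.05 (SE 0.31, adjusted p = 0.0252). Snord12, a small nucleolar RNA, was at 5.67, 9.66 and 5.43 TPM in S302A_DEN and 1, 1 and 1 TPM in WT_DEN, but at 8.78, 2.24 and 4.14 TPM in WT_Ctrl, so part of its difference of 3.21 (SE 0.52, adjusted p = 0.0289) is a lower value after DEN in wild type. BC021767 had a difference of 2.47 (SE 0.34, adjusted p = 0.0153), and its levels are not reported here. On 12 libraries none of these was called, with 1.72 for Gm14204, 2.35 for Fkbp11, 2.91 for Btg3, 3.08 for Snord12 and 2.07 for BC021767.

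Spp1, osteopontin, a marker of cholangiocytes that other cells also make, was at 59, 55.3 and 122 TPM in S302A_DEN and 13.7 to 32.1 TPM in the other 9 libraries, with 1.89 (SE 0.35, adjusted p = 0.0436) on 11 libraries. Summed cholangiocyte markers were 115, 119 and 423 TPM in S302A_DEN and 28.6 to 67.5 TPM elsewhere. Of the 12 markers, 8 were at the floor in both of the first and second S302A_DEN libraries, Spp1 itself gave 59.0 of the 115 and 55.3 of the 119 TPM, and the part of these cells in the result was not tested. C6, a terminal complement component, was at 263, 239 and 138 TPM in S302A_DEN and 91.5 to 169 TPM elsewhere (1.27 (SE 0.18, adjusted p = 0.0163)). Egfr, the epidermal growth factor receptor, was at 174, 149 and 41.6 TPM in S302A_DEN against 80.8 to 114 TPM. Replicate 3 of S302A_DEN was the lowest of all 12 libraries, and the difference was 1.11 (SE 0.18, adjusted p = 0.0272) on 11 and 0.47 on 12. On 12 libraries Spp1 had 2.25 and C6 0.98, and none of the 3 was called.

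Rpph1, the RNA of ribonuclease P, was a negative call of another kind. It was at 17.2, 25.7 and 8.03 TPM in S302A_Ctrl, at 1 to 2.15 TPM in WT_Ctrl, at 1 to 1.87 TPM in WT_DEN and at 1 TPM in all S302A_DEN libraries, so the difference of -3.0 (SE 0.51, adjusted p = 0.0361) on 11 libraries came from the untreated S302A livers. The 45S ribosomal precursor Rn45s was at 2180.4, 2851 and 1231 TPM in S302A_Ctrl and at 199 to 540.3 TPM in the other groups. On 12 libraries Rpph1 had -3.0 and was not called. The list named structural RNAs had 7 tested members: Rn45s, Rpph1, Rmrp, Scarna2, Malat1, Neat1 and Lars2. Malat1 and Neat1 are long noncoding RNAs, and Lars2 codes for a protein. Of the 7, 4 had a negative difference at an unadjusted p below 0.05 in each limma fit. The share of all genes was 2.83% on 12 and 11.5% on 11 libraries. After median-of-ratios scaling 3 of the 7 did on 11 libraries.

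Endoplasmic reticulum genes of the unfolded protein response had positive differences in both fits, though none was called on TPM as deposited (1 was on 11 libraries after median-of-ratios scaling). Of 20 tested members, 19 were positive on 12 and 18 on 11 libraries, against 66.6% and 34.3% of all tested genes in these fits. With a positive sign, 12 and 13 had an unadjusted p below 0.05, against 2.23% and 2.69% of all genes. The medians were 0.88 and 0.90, and 0.74 and 1.07 after median-of-ratios scaling. Part of the difference lies in the untreated livers: on 12 libraries the median of S302A minus wild type was -0.42 without and 0.47 with DEN. Hsp90b1, the chaperone GRP94, was at 423, 399 and 299 TPM in WT_Ctrl, 476, 329 and 287 in WT_DEN, 277, 325 and 245 in S302A_Ctrl and 487, 652 and 593 in S302A_DEN. All 3 treated S302A livers were above the 9 others, with a difference of 1.08 on 12 libraries (adjusted p = 0.491). The disulfide isomerase Pdia3 (1.00), the co-chaperone Dnajb11 (1.05) and Creld2 (1.77), a protein of the same compartment, had adjusted p-values of 0.491, 0.491 and 0.627. On 11 libraries the differences were 1.06 for Hsp90b1, 0.96 for Pdia3, 1.09 for Dnajb11 and 2.00 for Creld2.

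Liver genes with a daily rhythm were listed as clock output and as core clock. All 11 tested genes of the PAR bZIP factors and clock output were negative in both fits, with medians of -0.76 on 12 and -1.07 on 11 libraries, while 33.4% and 65.7% of all genes were negative. At an unadjusted p below 0.05, 6 were negative on 11 libraries (11.5% of all genes), 2 after median-of-ratios scaling (8.72% of all genes) and 1 on 12 libraries (2.83%), and none was called. The core clock list was mixed, with 8 of 14 members negative on 12 libraries and 10 of 14 on 11, the latter near the share of all genes, medians of -0.49 and -0.74, and none called. Cry1, a clock repressor, was at 6.94, 14.4 and 14.3 TPM in WT_DEN, where replicate 1 was the lowest, and 4.90, 1.26 and 15.4 TPM in S302A_DEN, with -1.71 on 11 and -0.99 on 12 libraries. Hlf, a PAR bZIP factor, had -1.04 (adjusted p = 0.0835) on 11 and -0.76 on 12. The labels give no time of day for the collections.

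Genes of fatty acid and triglyceride synthesis were negative in 20 of 23 members on 12 libraries and in 21 on 11, where 33.4% and 65.7% of all genes were, with medians of -0.66 and -0.79. Their median DEN change was 0.96 in wild type, and 0.09 on 12 and 0.07 on 11 libraries in S302A. Thrsp, a regulator of lipogenesis, was at 436, 94.7 and 185 TPM in WT_Ctrl and 816, 842 and 1213 TPM in WT_DEN. It was at 203, 308 and 204 TPM in S302A_Ctrl and 424, 159 and 59.7 TPM in S302A_DEN, so the treated wild type livers were above all others, with a difference of -2.80 on 12 libraries (adjusted p = 0.535) and -2.10 on 11. Of the list, Dgat2 was called on 11 libraries. Methyltransferase and one-carbon genes gave 13 of 18 negative (72.2%) in both fits, against 33.4% of all genes on 12 libraries and 65.7% on 11, where the share is near that of all genes. Their medians were -0.42 and -0.48. Gnmt, which consumes methyl groups from S-adenosylmethionine, was at 2293 to 2463 TPM in WT_DEN and 1028, 919.6 and 723 TPM in S302A_DEN against 674 to 1613 TPM untreated. Ahcy and Sardh, of the same cycle, had differences of -1.18 and -0.85 on 12 libraries, and these 3 were not called (adjusted p = 0.418, 0.38 and 0.489). Gnmt had -1.53 on 12, and on 11 libraries the differences were -1.39 for Gnmt, -1.14 for Ahcy and -0.87 for Sardh.

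Genes expressed more in male liver depended on the third library. The median of the 25 tested was 1.09 on 11 and 0.34 on 12 libraries, with 17 positive in each, which is 68% against 66.6% of all genes on 12 libraries and 34.3% on 11. C6 and Moxd1 were called on 11, where 0.19% of all genes were called with a positive difference. Mup1, a major urinary protein whose near-identical paralogs make its single value uncertain, was at 3353, 6093 and 5278 TPM in WT_Ctrl and 392, 1432 and 1367 TPM in WT_DEN. In S302A it was at 3392, 3754 and 4389.9 TPM without and 4278, 5153 and 168 TPM with DEN, so it was lower in all 3 treated wild type livers and in 1 of 3 treated S302A livers, with 2.67 on 11 and 1.07 on 12 libraries. Selenbp2 was at 53.2, 258 and 150 TPM in WT_DEN and 820.5, 1541 and 205 TPM in S302A_DEN, with a difference of 4.84 on 11 libraries (adjusted p = 0.121) and 4.02 on 12. Part of this difference lies in the untreated livers, where the mean log2 value was lower in S302A than in wild type. Female-biased genes had medians of -1.36 on 11 and -1.22 on 12 libraries over 12 tested. Of these, 10 were negative on 11 libraries (65.7% of all genes) and 8 on 12 (33.4%). The 4 called on 11 (0.462% of all genes), Cyp4a10, Cyp4a14, Acot3 and Abcd2, were described above. Cyp4a10, Cyp4a14 and Acot3 are also on the fatty acid oxidation list, so the 2 lists share most of these calls.

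Sinusoidal endothelium markers were negative in 11 of 12 members on 11 libraries, where 65.7% of all genes were, with a median of -0.87. Of the 12, 7 were negative at an unadjusted p below 0.05 (11.5% of all genes), but 2 after median-of-ratios scaling (8.72% of all genes). On 12 libraries 10 of 12 were negative, against 33.4% of all genes, with a median of -0.55. Their summed level was 96.1 to 135 TPM in WT_DEN, 54.3 and 79.4 TPM in the first and second S302A_DEN libraries and 128 TPM in the third. Clec4g, a lectin of these cells, was at 37.3, 31.7 and 39 TPM in WT_DEN and 25.7, 15.7 and 20.6 TPM in S302A_DEN, with a difference of -0.91 on 12 libraries (adjusted p = 0.697) and -0.92 on 11. Interferon response genes had a median of 0.69 on 12 and 0.01 on 11 libraries, and the liver tumour and fetal liver list 1.19 and -0.03. In the third S302A_DEN library all 25 tested interferon genes and all 10 tumour genes were above the other 2, as were 87.0% of all tested genes. Acute phase genes had medians of 0.32 and 0.60, and Saa3, an acute phase protein made outside hepatocytes as well, was at 33.7, 23.9 and 46.6 TPM in S302A_DEN and 4.96 to 23.3 TPM elsewhere (1.97 on 11 libraries, adjusted p = 0.0616, and 2.20 on 12). Hepatocyte markers had medians of -0.02 and -0.08.

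**Figure D5:**
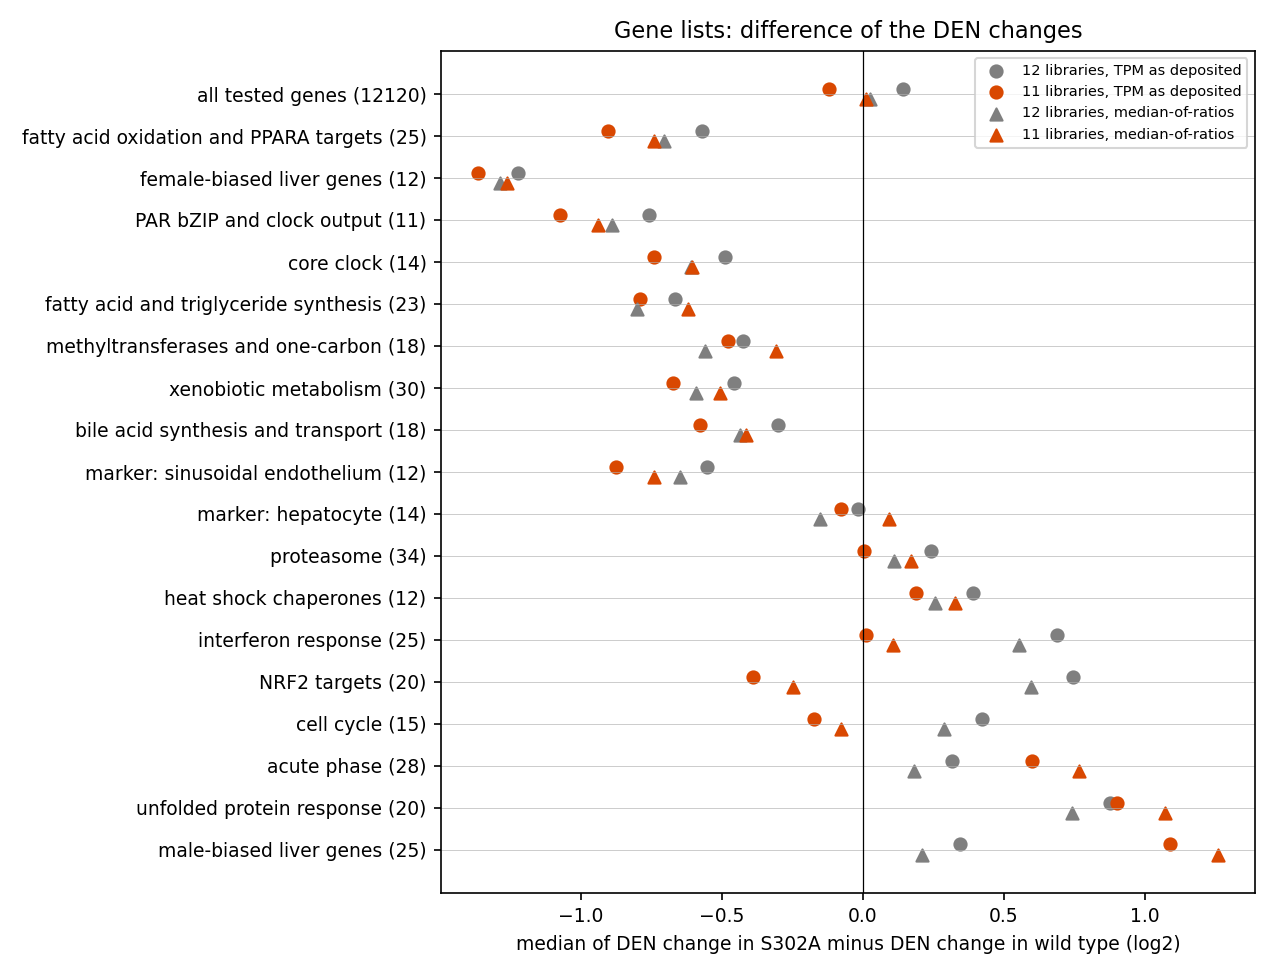
Median difference of the DEN changes (log2) of 18 gene lists and of all tested genes, with the number of tested members in parentheses; grey is 12 and orange 11 libraries, circles are TPM as deposited and triangles median-of-ratios scaling. Fatty acid oxidation, clock output and fatty acid synthesis lie left of 0 under all 4 settings. So do the core clock, female-biased, one-carbon, xenobiotic, bile acid and sinusoidal endothelium lists. The unfolded protein response lies right of 0 under all 4, as do the heat shock, acute phase, male-biased, interferon and proteasome lists. NRF2 targets and cell cycle genes change sides with the third S302A_DEN library.

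Psmd10 encodes gankyrin, the proteasome-associated protein that the series title names beside CUGBP1. It was at 8.95, 7.12 and 7.36 TPM in WT_Ctrl, 10.5, 7.09 and 6.70 in WT_DEN, 5.89, 7.22 and 6.03 in S302A_Ctrl and 8.65, 7.71 and 24.6 in S302A_DEN. The third treated S302A liver was the highest of the 12. The difference was 0.78 on 12 libraries (95% interval -0.30 to 1.87, adjusted p = 0.975) and 0.29 on 11 (adjusted p = 0.706), so a difference between genotypes in its DEN change was not detected.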

How the data were processed

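RNA was sequenced on an Illumina HiSeq instrument from TruSeq libraries, per the labels' protocols. Transcript levels were estimated by the authors with kallisto against mm10 and deposited as TPM per gene symbol, per the submitters' processing notes, which give no version. No deposited value lies below 1, and this was read as a floor. TPM keeps no depth, so counting precision is unknown.

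A linear model with 1 mean per group was fitted to log2(TPM + 1) by limma 3.58.1 under R 4.3.3, with trended empirical Bayes variances and two-sided tests, Benjamini-Hochberg adjusted over 12120 genes, threshold 0.05, on 12 libraries and on 11. The members, the 39 gene lists (540 tested genes of 647) and the comparisons were chosen with earlier results of these data known, so the lists are descriptions without a test. Named genes follow a rule: in each fit, of genes with a mean of at least 5 TPM in the highest group, the 15 largest called differences in each direction, filled to 10 by unadjusted p where fewer passed; the 10 largest among genes with opposite DEN changes and no overlap; up to 4 members per list by p; Celf1 and Psmd10. Some are not reported here. Coordinates are from GENCODE M21 (GRCm38, the build mm10), which held 74 of the 79 called genes. Alternatives were pseudocounts of 0.1 and 0.5, other filters, scalings and moderation, array weights, a replicate block and leaving out each library.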

Additional observations from a re-analysis of the deposited data

Results flagged for a closer look

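For the genes below the DEN change differed between S302A and wild type by limma's test of that difference, at an adjusted p below 0.05. Values are the DEN change in S302A minus that in wild type on the log2(TPM + 1) scale.

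On 12 libraries the differences were 4.67 for AB343393, 4.67 for AB343394, 2.14 for Gvin1, -11.78 for AK220016 and -2.75 for Cyp2b10. The first 2 are 1 measurement under 2 symbols.

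On 11 libraries, without S302A_DEN replicate 3, further genes passed. Among genes of fatty acid oxidation, peroxisomes and carnitine the differences were -4.87 for Cyp4a10, -5.14 for Cyp4a14, -2.63 for Acaa1b, -1.71 for Ehhadh, -3.13 for Acot1, -2.89 for Acot3, -2.44 for Acot4, -1.80 for Abcd2, -1.57 for Abcd3, -1.62 for Pex11a, -1.08 for Eci1, -1.15 for Hadh, -0.83 for Hsd17b4, -1.16 for Slc25a20, -0.89 for Acad11, -2.20 for Aldh3a2 and -1.28 for Slc22a5. The other negative differences were -3.0 for Rpph1, -3.24 for Inmt, -1.47 for Mgll, -1.96 for Retsat, -1.47 for Akr1c12, -0.87 for Akr1c13, -2.77 for Akr1c19, -3.41 for Marcksl1-ps4, -2.78 for Ces1d, -2.41 for Ces1e, -2.76 for Ces1g, -1.20 for Dgat2, -3.47 for Cyp2c38, -1.97 for Fmo1, -1.85 for Abcc3 and -1.5 for Gclc. The positive differences were 1.77 for Gm14204, 3.21 for Snord12, 1.31 for Col5a2, 1.97 for Fkbp11, 1.89 for Spp1, 5.76 for Moxd1, 3.44 for Fabp5, 3.04 for Cxcl14, 2.47 for BC021767, 2.05 for Btg3, 1.27 for C6 and 1.11 for Egfr. These genes did not pass with that library included.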

How the results depend on the processing

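Called genes on 12 libraries numbered 5, and 12 under median-of-ratios scaling (4 positive, 8 negative), 10 under quantile normalization (4 and 6) and 508 under array quality weights (112 and 396), which gave S302A_DEN replicate 3 a weight of 0.0498. Leaving out each library in turn gave 2 to 79, with 3 without WT_Ctrl replicate 1, 13 without WT_Ctrl replicate 3, 2 without S302A_Ctrl replicate 2, 2 without WT_DEN replicate 3 and 79 without S302A_DEN replicate 3. Genes with opposite DEN changes numbered 31, and 93, 77 and 258 under the same 3 settings, with 15 to 156 when each library was left out. On 11 libraries the 79 called genes became 166 under array quality weights. Leaving out 1 more library gave 20 to 101, with fewer than 79 by over 1.5 times without any 1 of WT_Ctrl replicates 2 and 3 (41 and 46), the S302A_Ctrl replicates (21, 22 and 34), the WT_DEN replicates (41, 20 and 23) and S302A_DEN replicate 2 (22). The 156 opposite genes became 77 to 236. Of the 79 genes, 11 stayed called in all 21 alternatives: AB343393, AB343394, Acaa1b, Akr1c12, Akr1c19, Aldh3a2, Cyp4a10, Eci1, Gvin1, Marcksl1-ps4 and Retsat. Where 1 S302A_DEN library remained, it was assumed to vary like the other groups.

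With the replicate number as a block, 5 genes were called on 12 libraries and 52 on 11 (15 positive, 37 negative). The labels do not say that numbers pair mice, so the numbers were not taken as pairs. Deviations from the group means correlated at -0.187 to 0.282 between same-numbered libraries over 18 pairs, 5 of them above 0.1. Without values for differently numbered libraries beside them, these correlations cannot decide whether numbers pair mice.

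Among the named genes, 2 turned sign on 12 libraries, where neither was called. The difference of Akr1c13 was 0.0094 as reported, -0.127 under median-of-ratios scaling, -0.862 under array quality weights and -0.874 to 0.466 when each library was left out. The difference of Gclc was 0.073 as reported, -0.065 under median-of-ratios scaling, -1.21 under array quality weights and -1.5 to 0.973 when each library was left out. The cause of these changes was not tested. No named gene turned sign on 11 libraries. TPM keeps no depth, so the precision of low values is unknown.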
